A study of Sus scrofa with 11 samples.

Results

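Osteoclast and giant cell genes were compared between diabetic and non-diabetic full-thickness skin wounds of Yucatan minipigs. The group held 10 genes chosen by name from the 30376 genes of the deposited expression table: SPP1, ATP6V0D2, TM4SF19, ACP5, CTSK, DCSTAMP, OCSTAMP, NFATC1, CALCR and GPNMB. All 10 were found, each in 1 row. The diabetic group was 7 wounds of 1 female minipig given streptozotocin, which destroys the insulin-producing beta cells, and then kept on insulin until a week before wounding. The non-diabetic group was 4 wounds of 1 female minipig that received no streptozotocin. The wounds of both animals were punched through the skin of the back and excised on day 10, and poly(A) RNA of each wound was sequenced as 1 library. Because each group was 1 animal, diabetes cannot be told apart from other differences between the animals, and every p-value below measures the spread between wounds only.

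Osteoclasts and multinucleated giant cells both form when cells of the monocyte and macrophage line fuse. In bone, RANKL (TNFSF11) and M-CSF (CSF1) act on macrophage precursors, NFATC1 is switched on, DCSTAMP and OCSTAMP allow the cells to fuse, a proton pump that contains ATP6V0D2 acidifies the space under the cell, and CTSK and ACP5 work in that acid space on the bone matrix. In skin, giant cells are known from granulomas and foreign-body reactions, and macrophages that have not fused also express SPP1, GPNMB, CTSK and ACP5. The names of these genes therefore do not fix a cell type in a wound.

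Levels are given as FPKM, that is, sequenced fragments scaled to the length of the gene and the size of the library, so levels of different genes can be compared per length. Libraries held 28314785 to 40168372 reads on genes in diabetic wounds and 32961018 to 36872400 in non-diabetic wounds, and the number of reads is given below for genes with few of them, covering counting error only. Differences are diabetic minus non-diabetic on log2(FPKM + 0.5), a scale that shrinks the differences of genes near or under 0.5 FPKM. Genes with at least 0.5 FPKM in at least 4 libraries were tested with limma, p-values were adjusted over all 13956 of them, and a gene was called at an adjusted p under 0.05 with a log2 difference beyond 0.5 in size. Diabetic replicate 4 and non-diabetic replicate 1 stood apart from the other 9 wounds on the first principal component (44.5% of the variance). The summed FPKM of the keratinocyte markers was 38.6 and 288 in these wounds and at least 1603 in the others, and the summed neutrophil markers were 46.2 and 301 against at least 3808. In the group means, nearly all of the neutrophil sum was S100A8, S100A9 and S100A12, so it is not read as a number of neutrophils. CSF3R was at least 3.70 FPKM in every diabetic and 2.75 in every non-diabetic wound, while CXCR2 ranged down to 0.215 and 0.0434. Results that rest on diabetic replicate 4 or non-diabetic replicate 1 are given with and without them.

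The 250 bases before the annotated start of 5 genes are shown because the lower levels described below were of these genes. The sequences are from RefSeq's Sscrofa11.1 genome, read 5′ to 3′ on the strand of each gene: SPP1 at chr8:131085335-131085584 (minus strand), ATP6V0D2 at chr4:50749374-50749623 (minus), TM4SF19 at chr13:133758872-133759121 (plus), CTSK at chr4:98389209-98389458 (plus) and DCSTAMP at chr4:32928324-32928573 (minus). Capitals mark matches, on either strand, to 1 of 5 motifs of factors known from macrophages and osteoclasts: CACGTG (E-box), CATGTG (E-box), TGANTCA (AP-1), GAGGAAG (PU.1) and GGAAA (the NFAT core).
SPP1: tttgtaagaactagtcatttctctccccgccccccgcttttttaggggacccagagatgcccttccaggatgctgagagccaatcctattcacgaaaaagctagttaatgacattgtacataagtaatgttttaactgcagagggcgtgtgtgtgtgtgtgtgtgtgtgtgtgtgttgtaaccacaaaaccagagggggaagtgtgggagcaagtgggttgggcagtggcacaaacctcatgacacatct
ATP6V0D2: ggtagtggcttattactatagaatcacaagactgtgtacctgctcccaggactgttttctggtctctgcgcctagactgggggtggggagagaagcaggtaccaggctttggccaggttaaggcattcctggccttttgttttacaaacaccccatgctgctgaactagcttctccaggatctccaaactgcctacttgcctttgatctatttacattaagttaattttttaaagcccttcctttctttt
TM4SF19: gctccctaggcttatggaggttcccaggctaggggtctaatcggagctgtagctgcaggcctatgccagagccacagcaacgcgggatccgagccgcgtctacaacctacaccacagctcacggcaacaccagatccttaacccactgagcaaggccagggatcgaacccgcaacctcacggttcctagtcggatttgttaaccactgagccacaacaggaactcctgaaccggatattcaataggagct
CTSK: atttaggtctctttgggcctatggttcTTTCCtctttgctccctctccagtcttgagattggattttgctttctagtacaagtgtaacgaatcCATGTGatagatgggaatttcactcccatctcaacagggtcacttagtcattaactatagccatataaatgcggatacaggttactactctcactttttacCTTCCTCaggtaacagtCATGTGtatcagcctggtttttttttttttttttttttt
DCSTAMP: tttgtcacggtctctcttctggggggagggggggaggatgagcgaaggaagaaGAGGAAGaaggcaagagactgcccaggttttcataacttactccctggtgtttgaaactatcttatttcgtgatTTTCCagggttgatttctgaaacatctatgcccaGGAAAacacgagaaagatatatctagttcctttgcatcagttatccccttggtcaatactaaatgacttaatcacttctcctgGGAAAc

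The windows of SPP1, ATP6V0D2 and TM4SF19 held none of these letter strings. That of CTSK held CATGTG at 157 and 39 bases before the start, GAGGAAG at 56 and GGAAA at 223 bases before it. That of DCSTAMP held GAGGAAG at 197 bases and GGAAA at 123, 89 and 6 bases before the start. Over all 10 genes, GGAAA occurred in 5 windows and GAGGAAG in 3, CATGTG occurred only in that of CTSK among the 10, and CACGTG and TGANTCA occurred in none. Among 20664 windows of the same length before protein-coding genes, these included, GGAAA was in 54.4%, GAGGAAG in 9.84%, CATGTG in 8.75%, CACGTG in 6.16% and TGANTCA in 5.48%. A match is a description of the letters and not a binding site.

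SPP1, ATP6V0D2 and TM4SF19 were lower in diabetic wounds and passed the test. Their mean levels in non-diabetic wounds were 3.69, 10.7 and 3.41 times those in diabetic wounds. The other 4 tested genes (CTSK, ACP5, NFATC1 and GPNMB) were not called, and no gene of the 10 was called higher. Thus 3 of the 10 members were called lower and 7 had been tested, where 1.66% of all tested genes were called lower and 1.35% higher. The members were chosen with earlier results of these data known. Nothing particular to the group is therefore read from these counts or from the like counts below. DCSTAMP, OCSTAMP and CALCR were under the limit for testing across genes. In whole wound tissue, fewer cells that express a gene and less RNA per cell cannot be told apart.

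**Figure D1:**
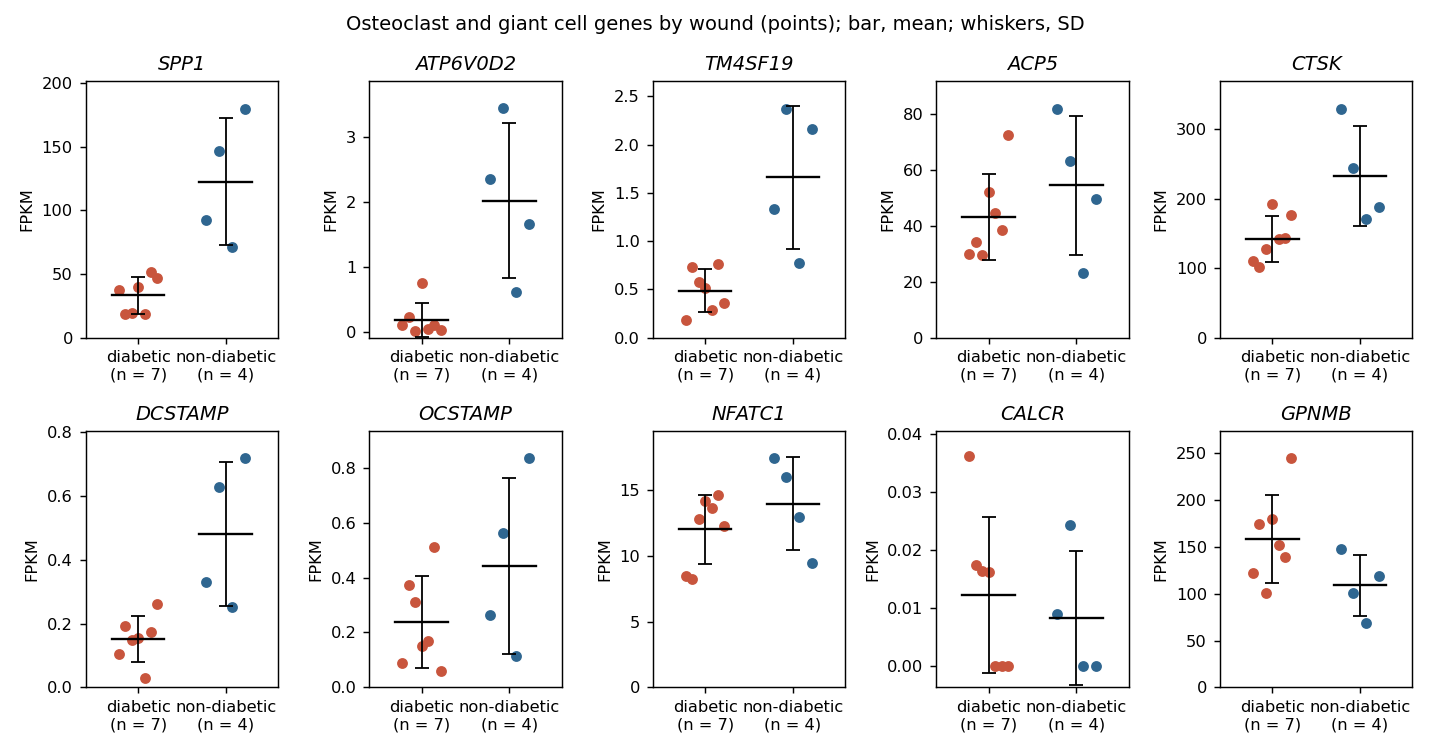
FPKM of the 10 genes in each wound (vertical axes, linear and separate for each gene), with 7 diabetic wounds in red and 4 non-diabetic wounds in blue; the bar is the mean and the whiskers are 1 SD. The 7 diabetic wounds lie below the 4 non-diabetic wounds for SPP1 and TM4SF19, ATP6V0D2 has 1 diabetic wound at 0.757 FPKM, and the groups are mixed for ACP5, OCSTAMP, NFATC1, CALCR and GPNMB.

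SPP1 encodes osteopontin, a secreted phosphoprotein of bone matrix that is also made by macrophages and binds integrins and CD44. It was at 18.3 FPKM in the lowest diabetic wound, 37.6 at the median and 52.0 in the highest. Non-diabetic replicates 1 to 4 had 92.5, 147, 71.1 and 180.1 FPKM. Every diabetic wound was below every non-diabetic wound, and the closest pair was 52.0 in diabetic replicate 6 against 71.1 in non-diabetic replicate 3. The means were 33.2 ± 14.2 (SD, n = 7) and 123 ± 49.8 FPKM (SD, n = 4). By rank among all 30376 genes, SPP1 was number 362 in non-diabetic wounds and number 1522 in diabetic wounds. The log2 difference was -1.90 ± 0.36 (SE), with a limma adjusted p of 0.0160 and a 95% interval of -2.68 to -1.11. Among all 330 ways to split the wounds into 7 and 4, the exact permutation test (two-sided) gave p = 0.00303, the smallest it can give. The call did not pass without non-diabetic replicate 2 (limma adjusted p = 0.0543) or without non-diabetic replicate 4 (limma adjusted p = 0.0554), the 2 wounds with the highest SPP1, while the log2 difference stayed at -1.78 and -1.68.

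ATP6V0D2 encodes a d subunit of the V-type proton pump that is enriched in osteoclasts and some macrophages. It had 0.0240 FPKM in the lowest diabetic wound, 0.106 at the median and 0.757 in the highest, from 2, 6 and 51 reads. The non-diabetic replicates had 2.35, 3.44, 0.623 and 1.66 FPKM, from 143, 232, 46 and 137 reads. All diabetic wounds but replicate 4 were below all non-diabetic wounds, and replicate 4 was above non-diabetic replicate 3 alone. The means were 0.189 ± 0.260 (SD, n = 7) and 2.02 ± 1.18 FPKM (SD, n = 4). By limma the log2 difference was -1.80 ± 0.33 (SE) with an adjusted p of 0.0135 and a 95% interval of -2.51 to -1.08, and the exact permutation test gave p = 0.00606. ATP6V0D2 reached 0.5 FPKM in all 4 non-diabetic wounds and in 1 diabetic wound, so it entered the test through the group in which it is higher.

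The size of the ATP6V0D2 difference depended on how low values were treated. With voom on reads recovered from the FPKM values, which adds no FPKM offset, the log2 difference was -3.89, and with a pseudocount of 1 it was -1.28. The call was lost without non-diabetic replicate 1 (log2 difference -1.69, limma adjusted p = 0.0531). ATP6V0D1, the d subunit that most cells express, was at 43.8 ± 4.42 (diabetic) and 49.7 ± 7.85 FPKM (non-diabetic) and was not called (log2 difference -0.17, limma adjusted p = 0.480). In the same wound, ATP6V0D2 amounted to 0.0528% to 1.54% of the ATP6V0D1 level in diabetic wounds and to 1.59% to 6.57% in non-diabetic wounds. The closest shares, 1.54% and 1.59%, rest on 51 and 46 reads of ATP6V0D2. How many other genes separate on such a ratio was not counted, so the separation is not read as a result. The d1 subunit made up nearly all d subunit RNA in both groups.

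TM4SF19 encodes a membrane protein with 4 transmembrane segments that has been linked to osteoclasts and multinucleated cells. It had 0.183 FPKM in the lowest diabetic wound, 0.514 at the median and 0.762 in the highest, from 14, 35 and 70 reads as the lowest, median and highest counts. The non-diabetic replicates had 1.34, 2.37, 0.777 and 2.17 FPKM, from 82, 162, 58 and 181 reads. The groups did not overlap, but the highest diabetic wound and the lowest non-diabetic wound lay side by side. The means were 0.488 ± 0.221 (SD, n = 7) and 1.66 ± 0.742 FPKM (SD, n = 4). Between groups, TM4SF19 differed by -1.09 ± 0.24 (SE) on the log2 scale, with a limma adjusted p of 0.0324 and a 95% interval of -1.62 to -0.56, and the exact permutation test gave p = 0.00303. With voom on recovered reads the log2 difference of TM4SF19 was -1.77. Its call was the least stable of the 3. It was kept in 13 of 22 alternatives, and it did not pass without diabetic replicates 3, 5 or 7 (limma adjusted p = 0.0556, 0.0672 and 0.0648) or without non-diabetic replicates 1, 2 or 4 (limma adjusted p = 0.0709, 0.0975 and 0.101). Without both wounds that stood apart the log2 difference of TM4SF19 was -1.16 with a limma adjusted p of 0.0862.

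SPP1 and TM4SF19 were the only tested members whose groups did not overlap, where 2.96% of all tested genes had every diabetic wound below every non-diabetic wound and 2.69% every diabetic wound above, which no member had. With voom on 17031 genes with at least 10 reads in at least 4 libraries, a setting added after the data were seen, the same 3 members were called lower and none higher, where 1.94% of those genes were called lower and 0.957% higher. Without both wounds that stood apart, SPP1 and ATP6V0D2 were still called.

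DCSTAMP and OCSTAMP encode membrane proteins that macrophage precursors need for fusion. Neither separated the groups wholly, and neither did CALCR. Among all genes under the limit for testing that had at least 1 read, 1.48% had every diabetic wound below every non-diabetic wound. DCSTAMP had 0.0289 FPKM in the lowest diabetic wound, 0.154 at the median and 0.263 in the highest, from 6, 31 and 55 reads as the lowest, median and highest counts. The non-diabetic replicates had 0.330, 0.628, 0.253 and 0.719 FPKM, from 60, 127, 56 and 178 reads. Of the diabetic wounds, 6 were below all non-diabetic wounds, and diabetic replicate 7 was just above non-diabetic replicate 3. The means were 0.152 ± 0.0728 (SD, n = 7) and 0.483 ± 0.226 FPKM (SD, n = 4), a ratio of 3.17. The log2 difference of -0.57 gave p = 0.00606 in the exact permutation test. In fits across all genes that admitted DCSTAMP it was not called: limma with no filter on low values gave an adjusted p of 0.0653, and voom on recovered reads gave a log2 difference of -1.77 with an adjusted p of 0.0703.

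OCSTAMP had 0.0615 FPKM in the lowest diabetic wound, 0.170 at the median and 0.513 in the highest, and 0.263, 0.561, 0.114 and 0.834 FPKM in the non-diabetic replicates. Counts were 4 to 42 reads in diabetic wounds and 10 to 82 in non-diabetic wounds. The groups overlapped over most of their range, and non-diabetic replicate 3 was lower than 5 diabetic wounds. The log2 difference was -0.32 (exact permutation p = 0.224). The difference was within the spread between wounds.

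CTSK, ACP5 and GPNMB were the most abundant members beside SPP1, and none of them was called. CTSK encodes cathepsin K, the collagen-degrading protease of osteoclasts that fibroblasts and macrophages can also make. It had 101 FPKM in the lowest diabetic wound, 142 at the median and 193 in the highest, and 329.6, 244, 171 and 188 FPKM in the non-diabetic replicates. Of the 7 diabetic wounds, 5 were below all non-diabetic wounds, and replicates 4 and 7 lay within the non-diabetic range. The means were 142 ± 33.3 (SD, n = 7) and 233 ± 71.6 FPKM (SD, n = 4), a ratio of 1.64. CTSK differed by -0.70 ± 0.21 (SE) on the log2 scale, with a 95% interval of -1.16 to -0.23, a limma adjusted p of 0.101 and an exact permutation p of 0.0212. Quantile normalization alone moved CTSK past the threshold (log2 difference -0.83, limma adjusted p = 0.0419). The last 554 bases of ARNT overlap CTSK on the same strand, so that the window shown before CTSK lies within ARNT, and ARNT itself was at 9.23 ± 1.94 and 10.9 ± 1.51 FPKM (limma adjusted p = 0.431).

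Set against other cysteine cathepsins of the same wound, the CTSK level was 139% to 184% of that of CTSS in diabetic wounds and 202% to 379% in non-diabetic wounds, without overlap. Against CTSL it was 333% to 931% in diabetic wounds and 726% to 3922% in non-diabetic wounds, with overlap. How many other genes separate against such a partner was not counted, so neither ratio is read as a result particular to CTSK.

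ACP5 encodes tartrate-resistant acid phosphatase, the enzyme stained to find osteoclasts. It had 29.4 FPKM in the lowest diabetic wound, 38.6 at the median and 72.4 in the highest, and 81.8, 63.1, 23.0 and 49.6 FPKM in the non-diabetic replicates. The lowest of all 11 wounds was non-diabetic replicate 3 and the highest was non-diabetic replicate 1, so the diabetic range lay inside the non-diabetic range. The log2 difference was -0.26 ± 0.33 (SE), with a 95% interval of -0.99 to 0.46 and a limma adjusted p of 0.731 (exact permutation p = 0.494). The data thus left room for either sign.

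GPNMB encodes a transmembrane glycoprotein of lysosomes that osteoclasts, lipid-loaded macrophages and pigment cells express. It was the member with the higher mean in diabetic wounds among those past the limit for testing. It had 101 FPKM in the lowest diabetic wound, 152 at the median and 244 in the highest, and 147, 101, 68.7 and 118 FPKM in the non-diabetic replicates. The highest wounds were diabetic and the lowest was non-diabetic, with overlap between 101 and 147 FPKM. The log2 difference was 0.54 ± 0.25 (SE), with a 95% interval of 0.01 to 1.08, a limma adjusted p of 0.267 and an exact permutation p of 0.0727. As a share of GPNMB in the same wound, SPP1 was 10.6% to 37.4% in diabetic wounds and 62.9% to 152% in non-diabetic wounds, without overlap. SPP1 separated the groups by its own level as well, and how many other genes separate on such a ratio was not counted.

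NFATC1 encodes the transcription factor that drives osteoclast differentiation downstream of RANKL. It had 8.24 FPKM in the lowest diabetic wound, 12.8 at the median and 14.6 in the highest, and 17.4, 16.0, 13.0 and 9.46 FPKM in the non-diabetic replicates. The groups overlapped. For NFATC1 the log2 difference was -0.20 ± 0.20 (SE), with a 95% interval of -0.64 to 0.24 and a limma adjusted p of 0.654 (exact permutation p = 0.385).

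CALCR, the calcitonin receptor of mature osteoclasts, was nearly absent from the counts. The lowest diabetic wound had 0 reads, the median was 4 and the highest 10, and the non-diabetic replicates had 2, 6, 0 and 0 reads, so that its highest level in any wound was 0.0363 FPKM. No difference could be measured at these counts (exact permutation p = 0.591).

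**Figure D2:**
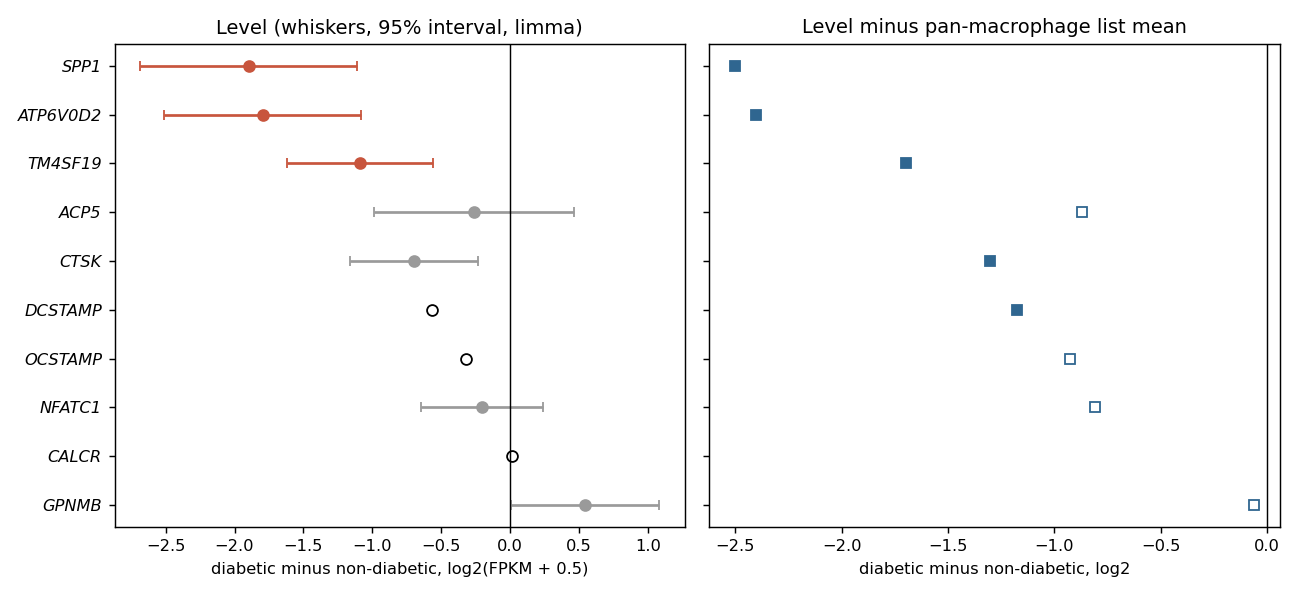
Left, log2 difference (diabetic minus non-diabetic) of each gene on log2(FPKM + 0.5); filled circles were tested with limma and carry 95% intervals, red ones were called, and open circles were under the limit for testing. Right, the same difference after the mean of 17 macrophage markers in the same wound was subtracted, with filled squares where the groups did not overlap, as for 30.5% of all tested genes, and CALCR left out for its low counts; the squares of SPP1 and ATP6V0D2 lie lowest, at -2.50 and -2.40, and GPNMB lies at -0.06.

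The members were also set against 17 general macrophage markers, although cells other than macrophages can express several of them. The mean of these markers on the log2 scale was 5.18 ± 0.18 (SD, n = 7) in diabetic and 4.58 ± 0.21 (SD, n = 4) in non-diabetic wounds, so that it was higher in diabetic wounds by 0.61 with no overlap (exact permutation p = 0.00303). Of the 17 markers, 16 had a positive log2 difference, where 52.3% of all tested genes had one, and 4 (CD14, MRC1, ITGAM and MARCO) were called higher, where 1.35% of all tested genes were. This list, too, was set up with earlier results of these data known, and nothing particular to macrophages is read from these counts. The summed FPKM of the markers was 1872 to 3477 in diabetic wounds and 1113 to 2315 in non-diabetic wounds, with overlap. In the group means LYZ was the largest part of this sum, at 1183 FPKM (diabetic) and 879 FPKM (non-diabetic). LYZ ranged from 38.9 to 2263 FPKM in diabetic and from 57.9 to 1432 FPKM in non-diabetic wounds.

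Relative to this macrophage level in the same wound, SPP1 differed by -2.50, ATP6V0D2 by -2.40, TM4SF19 by -1.70, CTSK by -1.30 and DCSTAMP by -1.18 on the log2 scale. Each relative difference is the gene's own log2 difference less the 0.61 of the markers, and a reference that itself separates the groups separates many genes. For each of these 5 genes every diabetic wound was below every non-diabetic wound (exact permutation p = 0.00303 for each), but the same held for 30.5% of all tested genes and for 64% of genes under the limit for testing with at least 1 read. It held also for CALCR (-0.60, exact permutation p = 0.00303), whose 0 to 10 reads and own difference of 0.01 leave only the shift of the markers. Separation on this scale is therefore not read as a result for any member. On their own levels CTSK, ATP6V0D2 and DCSTAMP overlapped between the groups, while SPP1 and TM4SF19 did not. The relative level of CTSK was 1.677 to 2.203 in diabetic wounds and 2.73 to 3.81 in non-diabetic wounds. Relative OCSTAMP (-0.93, exact permutation p = 0.00909), ACP5 (-0.87, p = 0.0212) and NFATC1 (-0.81, p = 0.0121) had overlapping groups. Their own log2 differences were -0.32, -0.26 and -0.20, so most of each relative value was the shift of the markers. How many genes reach such p-values on this scale was not counted, so these 3 are not read as results. Without both wounds that stood apart, the exact permutation p was 0.0952 for ACP5 and 0.0595 for NFATC1. Relative GPNMB differed by -0.06 (exact permutation p = 0.809).

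Fibroblasts are another source of CTSK, and the mean of 8 fibroblast markers differed by -0.05 (exact permutation p = 0.873). Relative to them, SPP1 (-1.85), ATP6V0D2 (-1.75) and CTSK (-0.65) had no overlap between the groups (exact permutation p = 0.00303 for each), where 0.659% of all tested genes had every diabetic wound below every non-diabetic wound on this scale, TM4SF19 differed by -1.04 (exact permutation p = 0.0273) with overlap, and DCSTAMP did not pass (-0.52, exact permutation p = 0.145). Of genes under the limit for testing, 0.0313% were separated in this direction, and none of the 3 members there was. With so few genes separated at these low levels, that says little about the 3 members.

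Bone and pigment cells, which can also express members, were checked by their markers. Osteoblasts also make SPP1. The summed osteoblast markers were 12.7 to 16.9 FPKM (diabetic) and 16.3 to 21.1 FPKM (non-diabetic), most of it RUNX2, which is also present outside bone, while MEPE had 0 reads in every wound and IBSP had at most 10. None of the 4 tested osteoblast markers was called. Melanocytes express GPNMB, and their markers summed to 0.411 to 7.55 FPKM (diabetic) and 2.10 to 17.5 FPKM (non-diabetic), far under the GPNMB level. The part of these markers in the results was not tested. The skeletal muscle markers summed to 1317 FPKM in diabetic replicate 3 and to at most 0.210 FPKM in the other wounds, and without that wound SPP1 and ATP6V0D2 were still called while TM4SF19 was not (limma adjusted p = 0.0556).

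The genes around the members in the osteoclast pathway were counted in 7 lists. Of 124 genes, 108 were tested, 4 were called higher (3.70%) and 3 lower (2.78%), where 1.35% and 1.66% of all tested genes were. The median log2 difference of the 108 was 0.03, beside 0.01 over all tested genes. The lists were set up with earlier results of these data known. Nothing particular to them is read from these counts or from those of each list below.

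In signalling by RANKL, M-CSF and their costimulatory receptors, 0 of 16 tested genes were called, where 1.35% of all tested genes were called higher and 1.66% lower. TNFSF11, the RANKL ligand, was at 1.78 ± 1.42 (diabetic) and 0.811 ± 0.887 FPKM (non-diabetic) (log2 difference 0.76, limma adjusted p = 0.483), and its receptor TNFRSF11A was at 0.930 ± 0.155 and 0.774 ± 0.195 FPKM (limma adjusted p = 0.519). TNFRSF11B, the decoy receptor that blocks RANKL, was under the limit for testing, with 3 to 18 reads in diabetic and 0 to 4 in non-diabetic wounds (log2 difference 0.28, exact permutation p = 0.00909). CSF1 and its receptor CSF1R differed by 0.14 and 0.28 (limma adjusted p = 0.632 and 0.610). TREM2, a lipid receptor that signals through TYROBP, differed by 0.11 (limma adjusted p = 0.903), and FCER1G, the most abundant gene of this list, by 0.39 (limma adjusted p = 0.305).

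Among transcription factors and repressors of osteoclast differentiation, 0 of 20 were called, where 1.35% of all tested genes were called higher and 1.66% lower. FOSL2, named after its value was seen, had a limma adjusted p of 0.0471 with a log2 difference of -0.44, under the size required for a call.

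Of 17 tested genes of cell fusion, CD82 was called higher and SH3PXD2A lower, where 1.35% and 1.66% of all tested genes were. CD82, a tetraspanin, was at 47.4 ± 7.99 (diabetic) and 27.9 ± 7.15 FPKM (non-diabetic) (log2 difference 0.77, limma adjusted p = 0.0323). SH3PXD2A, the podosome scaffold TKS5, was at 13.7 ± 1.42 and 20.2 ± 2.34 FPKM (log2 difference -0.54, limma adjusted p = 0.0150). The CD82 call was kept in 14 of 23 alternatives and that of SH3PXD2A in 18. CD63, the most abundant gene of the list, differed by 0.08 (limma adjusted p = 0.831).

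For the proton pump and acid secretion, 0 of 24 tested genes were called, where 1.35% of all tested genes were called higher and 1.66% lower. The log2 differences of these 24 genes ran from -0.52 to 0.33, and ATP6V0D2 stood below that range. So did ATP6V0A4 (-0.77) and ATP6V1G3 (-0.59), which were under the limit for testing. TCIRG1, the pump's a3 subunit that osteoclasts require, differed by 0.18 (limma adjusted p = 0.308), and ATP6V0C, the most abundant, by 0.33 (limma adjusted p = 0.137). ATP6V0A4 and ATP6V1G3, subunits best known from kidney and named after their values were seen, were below the limit for testing and lower in diabetic wounds (-0.77 and -0.59, exact permutation p = 0.00909 and 0.0182), from 0 to 27 and 0 to 11 reads in diabetic wounds. CA2, the carbonic anhydrase of osteoclasts, was not analysed here.

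Of 12 tested proteases and adhesion genes of the sealing zone, 0 were called, where 1.35% of all tested genes were called higher and 1.66% lower. MMP9, a gelatinase of osteoclasts and neutrophils, was at 24.9 ± 11.5 (diabetic) and 35.5 ± 12.4 FPKM (non-diabetic) (limma adjusted p = 0.437), and CTSB, the most abundant, was at 688 ± 176 and 522 ± 114 FPKM (limma adjusted p = 0.387). SIGLEC15, a sialic acid receptor of osteoclasts, was under the limit for testing, with 5 to 45 reads in diabetic and 10 to 161 in non-diabetic wounds (log2 difference -0.89, exact permutation p = 0.0212).

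Among relatives and receptors of SPP1, 1 of 10 tested genes was called, where 1.35% of all tested genes were called higher and 1.66% lower. ITGA8, the integrin subunit that pairs with beta 1 to bind osteopontin and other ligands, was at 14.1 ± 4.66 (diabetic) and 32.8 ± 5.89 FPKM (non-diabetic) (log2 difference -1.23, limma adjusted p = 0.0138). ITGB5, the most abundant receptor gene of the list, differed by 0.03 (limma adjusted p = 0.969).

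GPNMB is also found in lipid-loaded macrophages. Of 14 tested genes of these cells, PLIN2, CD36 and CD5L were called higher and LPL lower, where 1.35% and 1.66% of all tested genes were. PLIN2, which coats lipid droplets, was at 48.2 ± 6.46 (diabetic) and 16.0 ± 3.95 FPKM (non-diabetic) (log2 difference 1.58, limma adjusted p = 0.000306). CD36, a fatty acid and scavenger receptor, differed by 1.02 (limma adjusted p = 0.00523) and CD5L, a protein secreted by macrophages, by 1.29 (limma adjusted p = 0.0126). CD5L was at least 0.798 FPKM in every diabetic wound and at most 0.531 in non-diabetic wounds. It thus entered the test through the group in which it is higher. LPL, which releases fatty acids from lipoproteins, was at 19.3 ± 3.52 and 46.7 ± 11.98 FPKM (log2 difference -1.24, limma adjusted p = 0.00229). These 4 calls were each kept in 22 of 23 alternatives. FABP5, the most abundant gene of the list, differed by 0.12 (limma adjusted p = 0.912).

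**Figure D3:**
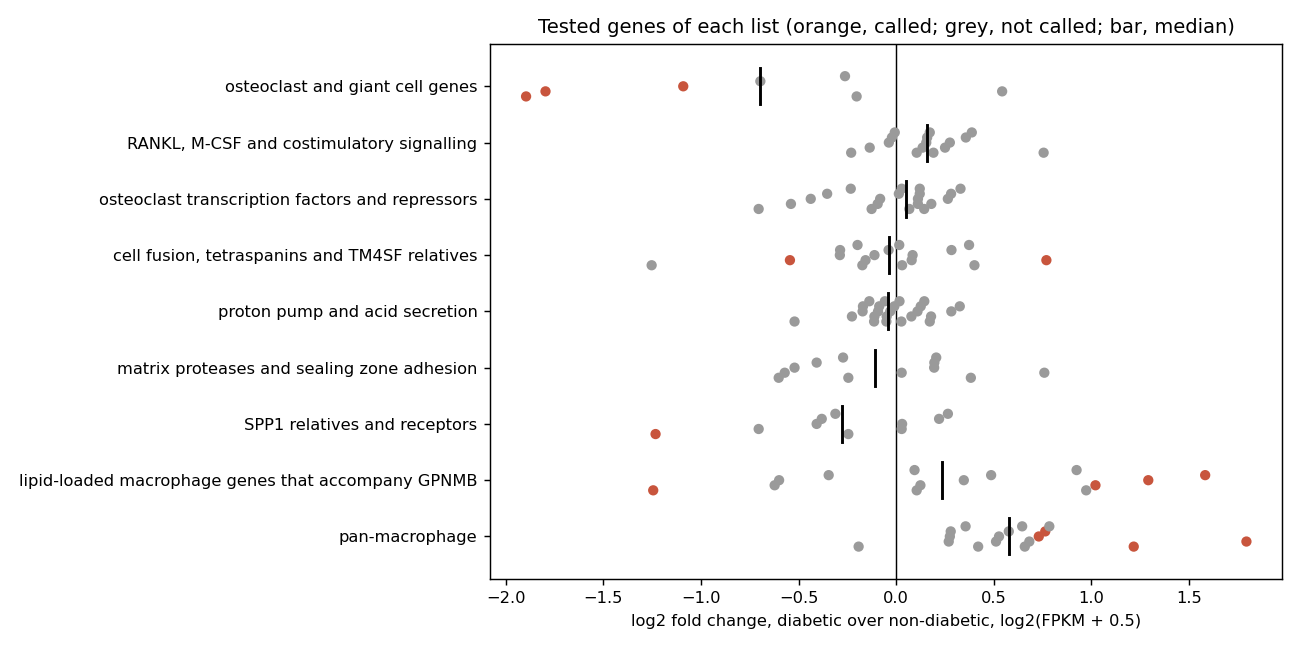
Log2 difference (diabetic minus non-diabetic, horizontal axis) of every tested gene in the member group, in 7 lists of the pathway and in the macrophage marker list, with called genes in orange, the others in grey and a black bar at each median. The 3 lowest members, at -1.90, -1.80 and -1.09, lie left of nearly all pathway genes, while the median of the pathway genes is 0.03 and that of the macrophage markers 0.58.

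From wound to wound, pairs of members varied together to different degrees. After the group means were removed, ACP5 varied with GPNMB (Pearson r = 0.88, Spearman rho = 0.84) and with CTSK (r = 0.84, rho = 0.83), and CTSK with NFATC1 (r = 0.78, rho = 0.81). TM4SF19 varied with OCSTAMP (r = 0.90, rho = 0.85) and DCSTAMP (r = 0.76, rho = 0.76), and SPP1 with DCSTAMP (r = 0.67, rho = 0.65). Other pairs ranged widely, for example -0.27 for DCSTAMP with NFATC1, 0.08 for TM4SF19 with CTSK and 0.43 for SPP1 with ACP5, and ATP6V0D2 had an r of 0.61 with ACP5, 0.56 with TM4SF19 and 0.54 with CTSK. These values are descriptions over 11 wounds that share 2 animals, and low counts of TM4SF19, DCSTAMP and OCSTAMP add noise. Without the 2 wounds farthest from the median of the first gene of each pair, r was 0.78 for ACP5 with GPNMB, 0.84 for ACP5 with CTSK, 0.67 for CTSK with NFATC1, 0.85 for TM4SF19 with OCSTAMP, 0.67 for TM4SF19 with DCSTAMP and 0.74 for SPP1 with DCSTAMP. For DCSTAMP with OCSTAMP it fell in this way from 0.64 to 0.31.

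**Figure D4:**
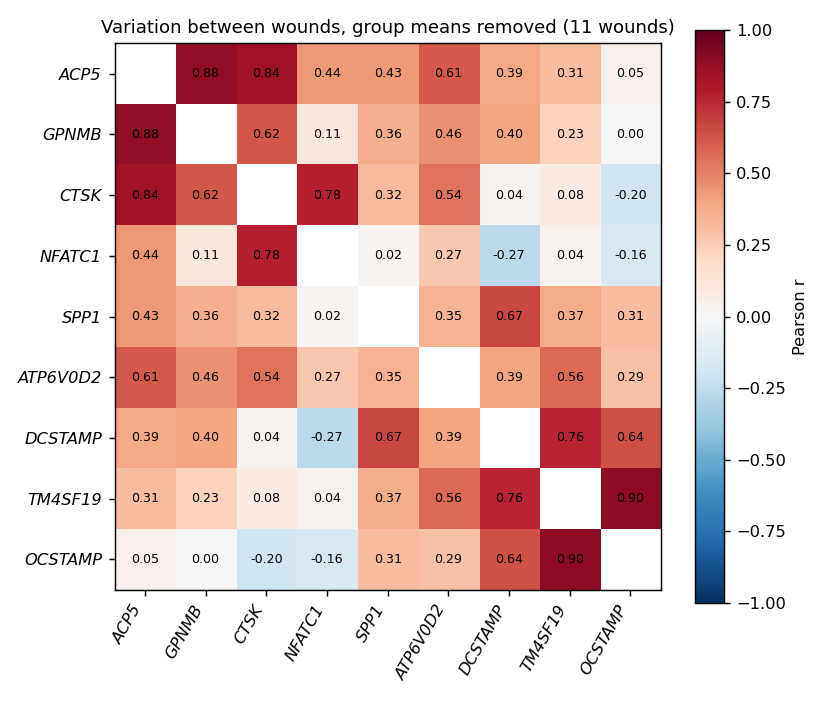
Pearson r between pairs of members over 11 wounds on log2(FPKM + 0.5), after the mean of each group was removed; red is positive, blue is negative, and CALCR is left out for its low counts. ACP5, GPNMB, CTSK and NFATC1 are in the upper left with r from 0.11 to 0.88, and DCSTAMP, TM4SF19 and OCSTAMP are in the lower right with r from 0.64 to 0.90.

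The gene whose level was most like that of CTSK by this measure was ARRB1 (r = 0.996, and 0.993 without both wounds that stood apart), followed by ABHD14A, MIR214, TMEM98 and PQLC2 (r = 0.97 to 0.98). For SPP1 the order was CYP2C91 (r = 0.92), PSMG3, FAM192A, RHOG and CLEC7A (r = 0.85). The genes most like ATP6V0D2 included TLR1 (r = 0.87), STAP1, IRF2 and PPP4R1L (r = 0.86), and for DCSTAMP the order was LOC102157527 (r = 0.92), AWN, A2M, CPT1A and F5 (r = 0.85). All were picked as the highest r among all tested genes, and what r unrelated genes reach in such a search was not examined. Of these named genes only CPT1A was called between the groups, and it was higher in diabetic wounds (33.9 against 7.84 FPKM, log2 difference 2.07, limma adjusted p = 6.54e-06), opposite to DCSTAMP.

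By position in Sscrofa11.1, ATP6V0D2 (chr4:50694188-50749373), CTSK (chr4:98389459-98404969) and DCSTAMP (chr4:32912320-32928323) lie on the same chromosome and far apart, SPP1 is at chr8:131077786-131085334 and TM4SF19 at chr13:133759122-133770064. ACP5 (chr2:70206159-70209855), OCSTAMP (chr17:48703937-48711690), NFATC1 (chr1:145940099-146002897), CALCR (chr9:73279874-73403516) and GPNMB (chr9:92037428-92071501) are on other chromosomes. The lower level in diabetic wounds was thus called for genes on 3 chromosomes.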

How the data were processed

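Poly(A) RNA of 7 diabetic and 4 non-diabetic day-10 wounds, each group from 1 minipig, was analysed with 1 library per wound. Per the labels and methods, the authors used fastp, HISAT2 2.2.1, StringTie 2.2.3 and featureCounts 2.0.6 on Sscrofa 11.1, and the FPKM values were used here as deposited. Their formula, the annotation release and the strand setting of counting are not given in the sources used here. FPKM times gene length gave whole reads within 0.05 reads, which served for read counts and for voom as an alternative. Genes with at least 0.5 FPKM in at least 4 libraries (13956 of 30376) were compared on log2(FPKM + 0.5) with limma 3.58.1 in R 4.3.3 (lmFit, eBayes with trend), Benjamini-Hochberg adjusted over all of them, without covariates. The fit was tried on simulated counts with the same spread setting for every gene and no wound that stood apart, unlike these data. That trial checks the code and not how the fit behaves on these wounds. For single genes an exact permutation test (two-sided, unadjusted) over 330 splits was used, whose smallest p is 0.00303. Python 3.11.15, SciPy 1.17.1 and matplotlib 3.10.9 were used. Named genes are the members, called and most abundant genes of each list, a fixed set of RANKL pathway genes and the 5 genes most like 4 members, and some genes that this rule names are not reported here. Members and lists were chosen with earlier results of these data known. Of 30376 identifiers, 30335 were found in the NCBI annotation with the same start and end. Alternatives changed the pseudocount, filter, scaling, weights, variance trend, block, covariate and wounds included. A voom filter on reads and the wound and pseudocount alternatives for levels relative to macrophage markers were added after the data were seen.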

Additional observations from a re-analysis of the deposited data

Results flagged for a closer look

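ATP6V0D2 in diabetic replicate 4 stood apart from the other diabetic wounds, at 0.757 FPKM against at most 0.232 FPKM, a gap of 0.716 of the group's range. It was the only such wound among the 20 groups of values examined (10 genes in 2 groups), and chance marks about 1 in 20 groups. The same wound was low in the summed keratinocyte markers and in the neutrophil sum, which S100A8, S100A9 and S100A12 dominate. The part of this in its ATP6V0D2 level was not tested. Without it the log2 difference of ATP6V0D2 was -1.95 with a limma adjusted p of 0.00550.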

How the results depend on the processing

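SPP1 was kept as called in 20 of 23 alternatives, ATP6V0D2 in 20 of 22 and TM4SF19 in 13 of 22, and no member's log2 difference between the groups changed sign in any. The 3 members called lower became 1 (SPP1) with a mean of at least 1 FPKM required, which removes ATP6V0D2 and TM4SF19 from the fit, and 1 to 3 when wounds were left out in turn: 1 without non-diabetic replicate 1 (SPP1) and 1 without replicate 2 or 4 (ATP6V0D2). Over all genes, 188 were called higher and 231 lower. Library weights gave 406 and 416, leaving out both wounds that stood apart gave 112 and 100, and leaving out each wound gave 110 to 236 and 99 to 246, with the lowest counts without non-diabetic replicates 1 and 3. With a replicate block, 11 genes were called higher, 5 lower and 0 members. The replicate numbers share only a number: same-numbered wounds correlated at r = -0.27, 0.22, 0.07 and -0.48, none of these wounds was most like its own number, and the cause of the lost calls was not tested. With the library letter as covariate TM4SF19 was at an adjusted p of 0.0503. Relative to fibroblast in place of macrophage markers, the sign reversed for GPNMB (0.59) and CALCR (0.057), and relative to macrophage markers GPNMB reversed without both wounds that stood apart (0.10), with -0.18 to 0.10 when each wound was left out; none of these passed the test. CALCR had too few reads in any wound for a difference to be measured.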

Other observations

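Adipocyte markers, which belong to no member, were lower in diabetic wounds for LEP, the leptin gene (0.156 ± 0.156 against 1.31 ± 0.753 FPKM, log2 difference -1.41, limma adjusted p = 0.0126), and the other 3 adipocyte markers were not called. LEP was at most 0.407 FPKM in diabetic wounds and at least 0.579 in non-diabetic wounds, so it entered the test through the non-diabetic group. RUNX2, an osteoblast transcription factor that skin also expresses, was at 9.83 ± 1.154 (diabetic) and 13.5 ± 1.39 FPKM (non-diabetic), with every diabetic wound below every non-diabetic wound, and its log2 difference of -0.44 (limma adjusted p = 0.0472) was under the size required for a call. No called marker was found among 8 keratinocyte, 8 fibroblast, 7 neutrophil, 5 T cell and 5 endothelial genes tested. Of all tested genes, 1.35% were called higher and 1.66% lower.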
